A study of Mus musculus with 12 samples.

Results

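The 8 genes described here are C3, the genes of the alternative pathway proteins factor B (Cfb), properdin (Cfp) and factor I (Cfi), the membrane regulators Cd55 and Cd59a, and the anaphylatoxin receptors C3ar1 and C5ar1. They were taken by symbol from a table of 50559 genes, and each of the 8 symbols was in it. RNA was sequenced from retinas of wild-type C57BL/6J mice on day 28, in 4 groups of 3 libraries. IgG and APB5 mice had been given 30 µg of rat isotype IgG or of APB5, a rat monoclonal antibody against PDGFRβ, on day 1 after birth, and IgG+Mino and APB5+Mino mice had the same antibodies followed by daily minocycline at 45 mg/kg from day 5 to day 27. PDGFRβ is the receptor through which endothelial PDGFB recruits pericytes, so a single dose of APB5 leaves growing retinal capillaries short of pericytes, and minocycline is a tetracycline antibiotic used to restrain microglia. Every group received an antibody, the study used mixed sexes, and the sources do not say whether a library held 1 mouse or more. P-values therefore measure the spread between these libraries.

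Complement is a cascade of plasma and locally made proteins that opsonises targets and recruits phagocytes. All of its routes meet at C3, whose cleavage releases the anaphylatoxin C3a and leaves C3b on a surface. In the alternative pathway C3b binds factor B to form a convertase that cleaves more C3. Properdin stabilises that convertase, CD55 speeds its decay, factor I cuts C3b into inactive fragments, and CD59 blocks the membrane attack complex at the end of the cascade. C3ar1 and C5ar1 are the receptors of C3a and C5a and are found largely on myeloid cells. In retina, microglia and glia make complement locally, and C3 is a familiar marker of their reactive states.

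The promoters of C3 and Cd59a are shown because C3 is the protein at which the routes of complement meet, and Cd59a followed another pattern across the 4 groups. Each line gives the 250 bases before the start site in RefSeq (GRCm38.p6), read 5′ to 3′ on the strand of the gene, and each matched GRCm39 at 1 place, which was chr17:57535137-57535386 on the minus strand for C3 and chr2:103925896-103926145 on the plus strand for Cd59a. Capitals mark the motif matches.
C3: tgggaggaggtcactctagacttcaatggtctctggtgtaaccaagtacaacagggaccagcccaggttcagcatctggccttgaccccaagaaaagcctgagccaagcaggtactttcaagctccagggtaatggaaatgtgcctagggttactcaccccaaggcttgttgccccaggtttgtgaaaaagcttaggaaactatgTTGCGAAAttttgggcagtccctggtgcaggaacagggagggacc
Cd59a: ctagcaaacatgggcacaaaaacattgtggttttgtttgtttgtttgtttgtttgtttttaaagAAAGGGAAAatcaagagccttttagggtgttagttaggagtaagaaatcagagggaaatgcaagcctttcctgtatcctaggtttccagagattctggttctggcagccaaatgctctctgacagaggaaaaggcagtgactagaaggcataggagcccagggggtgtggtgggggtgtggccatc
The capitals in C3 are a match on the plus strand to TTGCNNAA, letters shared with the C/EBP consensus, at positions −45 to −38 counted from the start site. Those in Cd59a are a match on the minus strand to TTTCNNTTT, letters shared with interferon response elements, at positions −186 to −178, and C3ar1 had the same motif at positions −210 to −202. Of 32851 promoters searched over the same 250 bases on both strands, 9.56% held TTGCNNAA and 9.37% held TTTCNNTTT. The kappa B motif, TTCNNNGAA and GAGGAAGT, found in 7.25%, 7.02% and 2.44% of promoters, had no match in the 6 of the 8 genes whose promoters were examined, which were C3, Cfp, Cd55, Cd59a, C3ar1 and C5ar1. Cfb and Cfi are named only. The matches describe letters and were not tested for binding.

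Libraries held 52740545 to 59411044 counts, and 3 counts corresponded to 0.0456 to 0.0585 CPM, the read count scaled to library size with TMM factors, which is the level used below. APB5 replicate 3 stood apart from the other 11 libraries, with a score of 126.9 on a first principal component that held 38.5% of the variance. The summed level of 20 microglia and macrophage markers, Ctss and Csf1r among them, was 417.7 CPM in it, against 84.7 and 88.2 CPM in the other APB5 libraries, 69.0 to 103.5 CPM in IgG, 50.2 to 60.0 CPM in IgG+Mino and 34.6 to 38.4 CPM in APB5+Mino. Its sum of 12 rod, cone and inner neuron markers, Gnat1 and Sag among them, was 12412 CPM against at least 44831 CPM elsewhere, its sum of 15 Müller glia and astrocyte markers was 13535 CPM against at most 5847 CPM, and its sum of 10 pigment epithelium and melanocyte markers (Ttr, Dct and Rdh5 the highest) was 967.3 CPM against at most 185.2 CPM. Members of the glial list went different ways in APB5 replicate 3 against the mean of the other APB5 libraries. Apoe was at 4871 against 1152 CPM, Serpina3n at 1364 against 23.3 CPM, Lcn2 at 1348 against 16.5 CPM and Dkk3 at 1043 against 809.3 CPM. Glul was lower, at 1598 against 2411 CPM. None of the markers in these 4 lists was at 0 in every library. Xist, the RNA of the inactive X, was high (47210 counts or more) in all of IgG and in the third replicates of APB5 and APB5+Mino, and near 0 (38 counts or fewer) in the remaining 7 libraries. APB5 without its replicate 3 and IgG therefore differ fully in this sign of sex, so antibody and sex cannot be told apart there. In bulk tissue, fewer cells of a type and less RNA per cell cannot be told apart either.

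Scaled to annotated exon length, the 8 genes fell into an abundant pair and 6 genes at much lower levels in IgG retinas. Cfp had 9.12 ± 1.35 and Cd59a 7.66 ± 1.997 CPM per kilobase (mean ± SD, n = 3), which lie within each other's spread. Cfi followed at 0.429 ± 0.141 and C3 at 0.399 ± 0.0884 CPM per kilobase, again not apart beyond their spread, then Cd55 at 0.143 ± 0.0277, C5ar1 at 0.0700 ± 0.0275, C3ar1 at 0.0601 ± 0.0440 and Cfb at 0.0459 ± 0.00910 CPM per kilobase. In APB5 replicates 1 and 2 the mean level of C3 was 1.47 CPM per kilobase and Cfp and Cd59a still led at 8.03 and 9.13, whereas in APB5 replicate 3 C3 led with 35.1 CPM per kilobase.

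C3 (chromosome 17, 57510964 to 57535155 on GRCm39, minus strand) was low in IgG retinas, with 1.54, 2.37 and 2.30 CPM in replicates 1 to 3. IgG+Mino libraries held 2.51, 2.87 and 2.25 CPM. APB5 libraries held 6.50, 8.74 and 181.8 CPM and APB5+Mino libraries 1.66, 1.60 and 1.96 CPM. Each APB5 library thus lay above all 9 others, and APB5 replicate 3 alone held 92.3% of the summed CPM of its group. The other APB5 libraries had 3.68 times the IgG mean, and replicate 3 had 23.9 times their mean. The log2 fold change of APB5 against IgG was 4.98 (SE 1.36, edgeR's quasi-likelihood test, adjusted p = 0.664), and 1.87 without replicate 3 (SE 0.25, edgeR, adjusted p = 0.0640). In APB5+Mino against APB5 it was −5.22 (SE 1.41, edgeR, adjusted p = 0.0607), and without APB5 replicate 3 it was −2.11 (SE 0.18, edgeR, adjusted p = 0.000533), which passed the threshold. Among the 7 libraries low in Xist APB5 was again the highest group, with 6.50 and 8.74 CPM under APB5, 1.66 and 1.60 CPM in APB5+Mino and 2.25 to 2.87 CPM in IgG+Mino. Among those high in Xist the values were 181.8 CPM in 1 APB5 library, 1.96 CPM in 1 APB5+Mino library and 1.54 to 2.37 CPM in IgG.

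Cfb (chromosome 17, 35074852 to 35081559, minus strand), the protease subunit of the alternative convertase, had the lowest level per kilobase of the 8 in IgG and the largest ratio of APB5 to APB5+Mino. Its counts were 8, 11 and 8 in IgG, 3, 3 and 7 in IgG+Mino, 37, 33 and 726 in APB5 and 2, 1 and 3 in APB5+Mino. Again each APB5 library was above all others, and the APB5+Mino libraries held 1 to 3 counts each. APB5 replicates 1 and 2 had 4.04 times the IgG mean, and replicate 3 had 17.4 times their mean. The log2 fold change of APB5 against IgG was 4.45 (SE 1.28, edgeR, adjusted p = 0.664) and without replicate 3 it was 1.81 (SE 0.41, edgeR, adjusted p = 0.316). Summed over the group, APB5 held 120.9 times the level of APB5+Mino with a counting interval of 55.3 to 330.6, and 16.99 times with an interval of 7.42 to 47.9 when replicate 3 was left out (exact 95% intervals, counting error only). The fitted log2 fold change of −5.83 (SE 1.58, edgeR, adjusted p = 0.0520) depends on the prior count at such levels. Without APB5 replicate 3 it was −3.18 (SE 0.53, edgeR, adjusted p = 0.00233). Cfb overlaps the readthrough gene Gm20547 on its own strand and Nelfe on the other, so its reads could be shared with theirs. C3, Cfi, Cfp and Cd55 each overlap a gene on the opposite strand (Gm65552, Gm36180, Gm61816 and Gm16083), and whether counting used the strand is not given in the sources used here.

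Cfi (chromosome 3, 129629533 to 129668981, plus strand), which needs a cofactor to inactivate C3b, had 0.718, 1.00 and 1.40 CPM in IgG and 0.892, 1.29 and 0.639 CPM in IgG+Mino. It had 2.17, 2.57 and 9.53 CPM under APB5 and 0.179, 0.565 and 0.301 CPM in APB5+Mino. APB5 lay above every other library, as for C3 and Cfb, and APB5+Mino lay below every library of the other groups. Replicate 3 weighed less here, with 4.02 times the mean of the other APB5 libraries, which had 2.28 times the IgG mean. The log2 fold change of APB5 against IgG was 2.17 (SE 0.62, edgeR, adjusted p = 0.664), and 1.17 without replicate 3 (SE 0.31, edgeR, adjusted p = 0.601). In APB5+Mino against APB5, Cfi fell by 3.66 on the log2 scale (SE 0.74, edgeR, adjusted p = 0.0472) and passed the threshold, and without APB5 replicate 3 it fell by 2.66 (SE 0.39, edgeR, adjusted p = 0.00289).

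Cfp (chromosome X, 20791688 to 20797794, minus strand) encodes properdin and did not share the pattern of Cfb and Cfi. Its values were 15.5, 13.7 and 18.4 CPM in IgG, 19.6, 12.3 and 9.39 CPM in IgG+Mino, 13.5, 14.4 and 13.97 CPM under APB5 and 16.2, 18.3 and 19.2 CPM in APB5+Mino. APB5 replicate 3, which stood apart for C3, had 0.999 times the mean of the other APB5 libraries. The log2 fold change was −0.18 in APB5 against IgG (SE 0.16, edgeR, adjusted p = 0.766) and 0.35 in APB5+Mino against APB5 (SE 0.11, edgeR, adjusted p = 0.0826), where each APB5+Mino library was above each APB5 library.

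**Figure D1:**
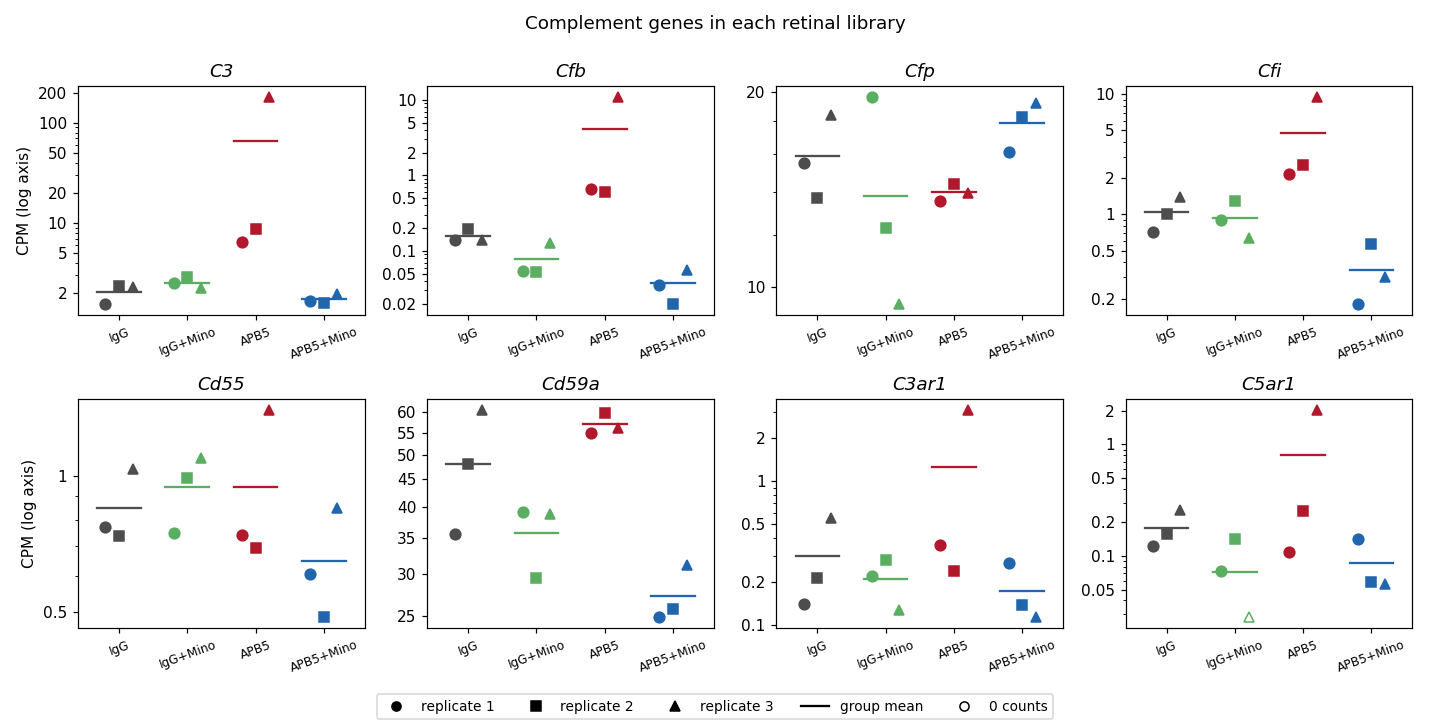
Level of each gene in every library, in CPM on a log axis, by group; symbols mark the replicate, lines the group mean, and the open symbol a library with 0 counts drawn at the bottom. C3, Cfb and Cfi had all 3 APB5 libraries above the IgG libraries, with replicate 3 (triangle) far above the other APB5 libraries, whereas Cfp and Cd59a had no such gap.

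Cd59a (chromosome 2, 103926132 to 103947029, plus strand) had the smallest p of the 8 genes between the APB5 groups. It had 54.9, 59.9 and 56.2 CPM under APB5 and 24.9, 25.8 and 31.2 CPM in APB5+Mino, against 35.6, 48.1 and 60.7 CPM in IgG and 39.0, 29.5 and 38.7 CPM in IgG+Mino. The APB5 values lay inside the range of IgG, and the log2 fold change of APB5 against IgG was 0.25 (SE 0.19, edgeR, adjusted p = 0.745). APB5+Mino lay below all APB5 and IgG libraries and overlapped IgG+Mino. In APB5+Mino against APB5, Cd59a fell by 1.06 on the log2 scale (SE 0.12, edgeR, adjusted p = 0.0430), and without APB5 replicate 3 it fell by 1.07 (SE 0.11, edgeR, adjusted p = 0.000968). APB5+Mino was below APB5 both among libraries low in Xist, at 24.9 and 25.8 against 54.9 and 59.9 CPM, and between the pair high in it, at 31.2 against 56.2 CPM. IgG+Mino against IgG gave −0.42 (SE 0.20, edgeR, adjusted p = 0.585). The paralog Cd59b had a mean of 0.644 CPM over the 12 libraries, and reads of the pair could be split.

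Cd55 (chromosome 1, 130366469 to 130390926, minus strand) passed the test in no comparison. IgG libraries had 0.771, 0.737 and 1.04 CPM, IgG+Mino 0.746, 0.986 and 1.10 CPM, APB5 0.741, 0.693 and 1.40 CPM and APB5+Mino 0.607, 0.487 and 0.847 CPM. The 4 groups overlapped, and APB5 replicate 3 was the highest library. The log2 fold change was 0.16 in APB5 against IgG (SE 0.37, edgeR, adjusted p = 0.914), turning to −0.23 without APB5 replicate 3, and −0.53 in APB5+Mino against APB5 (SE 0.39, edgeR, adjusted p = 0.329).

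The anaphylatoxin receptors were high in 1 library. C3ar1 (chromosome 6, 122823393 to 122833122, minus strand) had 8, 12 and 32 counts in IgG, 12, 16 and 7 in IgG+Mino, 20, 13 and 206 in APB5 and 15, 7 and 6 in APB5+Mino. C5ar1 (chromosome 7, 15980668 to 15993465, minus strand) had 7, 9 and 15 counts in IgG, 4, 8 and 0 in IgG+Mino, 6, 14 and 135 in APB5 and 8, 3 and 3 in APB5+Mino. Leaving out APB5 replicate 3, the APB5 means were 0.994 times IgG for C3ar1 and 1.01 times IgG for C5ar1, and all groups overlapped. With it, the log2 fold changes of APB5 against IgG were 1.95 for C3ar1 and 1.99 for C5ar1 (SE 1.04 for each, edgeR, adjusted p = 0.668 and 0.664), and without it they were −0.0050 and 0.017. In APB5+Mino against APB5, C3ar1 had a log2 fold change of −2.63 (SE 1.07, edgeR, adjusted p = 0.109), and −0.68 without APB5 replicate 3 (SE 0.53, edgeR, adjusted p = 0.297). C5ar1 had too few counts to be tested there, and its summed level in APB5 was 10.1 times that in APB5+Mino (interval 5.84 to 18.9), or 2.08 times without replicate 3 (interval 0.999 to 4.45).

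The first comparison asks what loss of pericyte recruitment does to the adult retina. In APB5 against IgG, 7 of the 8 genes had a positive log2 fold change, with a median of 1.97 against −0.0024 over all 20350 genes tested. A call needed an adjusted p no higher than 0.05 together with a log2 fold change of 1 or more in size. None of the 8 was called, and 0% of all genes were called higher, where 648 genes were higher at an unadjusted p under 0.05 with that fold and DESeq2 called 79 higher. C3, Cfb and Cfi, 3 of 8, passed the unadjusted threshold with the fold (0.00706, 0.00707 and 0.00862 in edgeR's test), against 3.18% of all genes on the higher side. The same 3 genes had every APB5 library above every IgG library, against 7.83% of all genes, and the smallest two-sided p of an exact permutation of 3 against 3 libraries is 0.1. A fit of the 12 libraries used Xist as a covariate and assumed 1 slope for every group. It called C3, Cfb and Cfi higher (edgeR, adjusted p = 0.00279, 0.000799 and 0.0134), as it did 1060 of 21228 genes. Within groups, Xist differed strongly only in APB5 and APB5+Mino, and the high APB5 library was replicate 3. DESeq2 on the 6 libraries called Cfi (adjusted p = 0.0349), among its 79 genes called higher, and gave no p for C3 and Cfb.

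Minocycline after APB5 is the comparison in which calls were made. In APB5+Mino against APB5, 6 of 7 tested genes had a negative log2 fold change, with a median of −2.63 against −0.020 over 20281 genes. Cfi and Cd59a, 2 of 7, were called lower, against 0.819% of all genes. With an unadjusted p under 0.05 and the same fold, 5 of 7 were lower (C3, Cfb, Cfi, Cd59a and C3ar1), against 6.43% of all genes. The libraries of the 2 groups did not overlap for C3, Cfb, Cfi and Cd59a, all lower, where 23.3% of all genes did so, and for Cfp, higher, where 23.2% did so. Without APB5 replicate 3, 4 genes were called lower, C3, Cfb, Cfi and Cd59a, against 2.53% of all genes. The numbers of the libraries appeared to pair these groups. They also follow Xist, which was high in replicate 3 of each group and low in the others. With the replicate number as a block 0 of the 8 genes were called, in a fit in which 0 genes of the whole table were called. The log2 fold changes in it were −3.42 for Cfi and −1.07 for Cd59a, with an adjusted p of 0.0641 for each (edgeR). Cfi and Cd59a also lost their calls without APB5 replicate 1 or any 1 APB5+Mino library (edgeR, adjusted p up to 0.214). In each of those fits at most 1 gene of the whole table was called. Cfi and Cd59a kept their calls without APB5 replicate 2, where 1049 of 20832 genes were called lower.

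**Figure D2:**
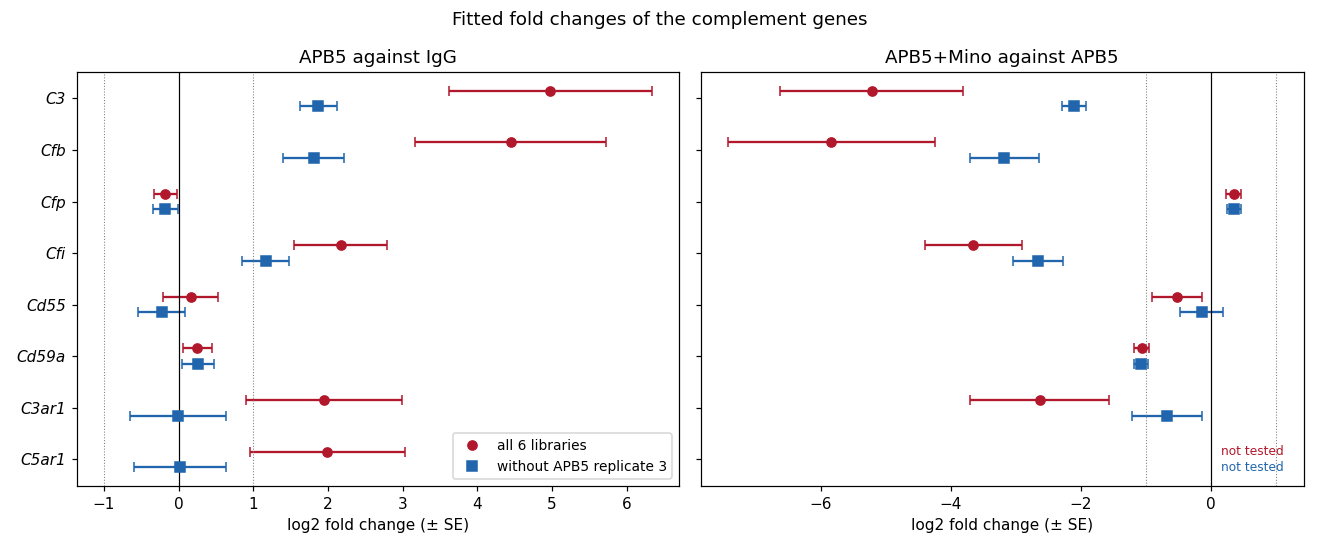
Log2 fold change with its standard error for each gene in APB5 against IgG (left) and APB5+Mino against APB5 (right), fitted with all 6 libraries (circles) and without APB5 replicate 3 (squares); dotted lines mark a log2 fold change of 1 in size. C3, Cfb and Cfi kept their direction in both comparisons without that library, Cd59a was at −1.06 and −1.07 on the right, and the receptors moved to near 0 on the left.

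The same question was asked of minocycline after control IgG. In IgG+Mino against IgG none of the 6 tested genes was called, where 0.0199% of 20143 genes were called higher and 0.00993% lower, and their log2 fold changes ran from −0.45 for C3ar1 to 0.30 for C3, the latter moving to 3.10 with Xist as a covariate (edgeR, adjusted p = 0.622). Cfb was lower in each IgG+Mino library than in each IgG library, at 3 to 7 against 8 to 11 counts, as 7.48% of the tested genes were, and it was too low to be tested. These groups also differed fully in Xist, so minocycline and sex cannot be told apart in them. Between the 2 groups that had minocycline, none of the 6 tested genes was called, where 0.349% of 20049 genes were called lower. C3 and Cfi did not overlap and were lower in APB5+Mino than in IgG+Mino, as were 17.2% of all genes, with log2 fold changes of −0.54 (SE 0.19, edgeR, adjusted p = 0.0942) and −1.35 (SE 0.44, edgeR, adjusted p = 0.0718).

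Whether the difference with minocycline was unlike after APB5 and after IgG was tested by the interaction in all 12 libraries. IgG and IgG+Mino differed fully in Xist, so the term cannot tell a response to minocycline apart from sex. None of the 8 genes was called, where 0.0141% of 21228 genes were called lower. C3, Cfb and Cfi had an unadjusted p under 0.05 with a fold past the threshold, against 4.56% of all genes on the lower side. Their interaction terms were −5.51 for C3 (SE 1.40, edgeR, adjusted p = 0.145), −5.07 for Cfb (SE 1.86, edgeR, adjusted p = 0.186) and −3.51 for Cfi (SE 0.83, edgeR, adjusted p = 0.132) on the log2 scale. For Cd59a the term was −0.63 (SE 0.25, edgeR, adjusted p = 0.243), so a difference between the antibodies in its response to minocycline was not shown. Without APB5 replicate 3 the term of C3 was −2.42 (SE 0.30, edgeR, adjusted p = 0.00626) and passed, as did 52 of 21571 genes on the lower side. In that fit the remaining APB5 libraries were low in Xist and the IgG libraries high, so the same limit holds.

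Of the 20 microglia and macrophage markers, 17 had a positive log2 fold change in APB5 against IgG, with a median of 1.49 and 0 calls, and 20 a negative one in APB5+Mino against APB5, with a median of −2.75 and 2 calls, Cx3cr1 and Fcrls, where 0.819% of all genes were called lower. Both calls were absent with the replicate block. Without APB5 replicate 3 the median of the markers was 0.12 in the first comparison with 11 of 20 positive, and −1.34 in the second with 10 called lower, where 2.53% of all genes were. Each of the 8 genes was also expressed as a percent of the summed level of these markers. C3 made up 2.22% to 3.04% of the marker sum in IgG, 3.77% to 5.01% in IgG+Mino, 7.37%, 10.3% and 43.5% in APB5 and 4.33% to 5.34% in APB5+Mino. On this scale each APB5 library was above all others for C3, and for Cfb, at 0.711% to 2.64% in APB5 against 0.0563% to 0.248% elsewhere. Cfi had 2.28% to 3.04% in APB5, where replicate 3 no longer stood out, 1.04% to 1.35% in IgG, 1.07% to 2.14% in IgG+Mino and 0.465% to 1.63% in APB5+Mino. The receptors behaved otherwise: C3ar1 had 0.203% to 0.534% in IgG and 0.280% to 0.750% in APB5, C5ar1 had 0.178% to 0.250% and 0.123% to 0.491%, and all 4 groups overlapped for both. APB5 replicate 3 had 10.5 and 11.3 times the C3ar1 and C5ar1 levels of the other APB5 libraries in CPM. Cd59a had 13.4% to 70.8% in APB5 and 64.9% to 85.1% in APB5+Mino, which overlapped, unlike its CPM. On this scale Cfp and Cd55 had all APB5+Mino libraries above all APB5 libraries, at 42.1% to 52.8% against 3.34% to 17.0% and at 1.41% to 2.31% against 0.335% to 0.840%. These ratios describe the libraries, and the part of microglial RNA in the group differences was not tested.

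**Figure D3:**
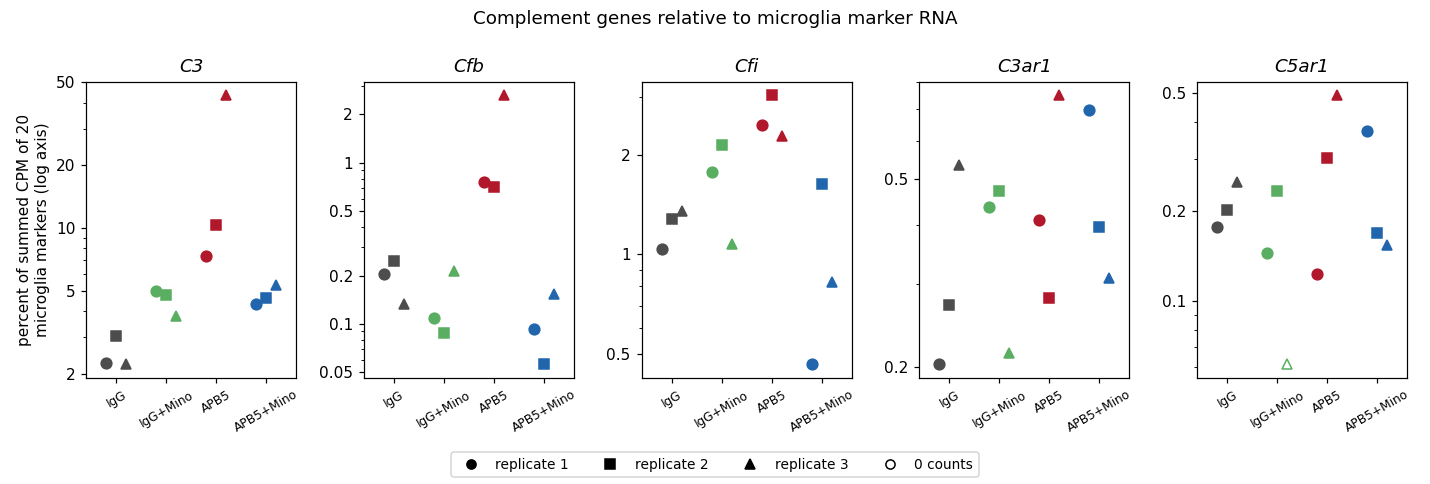
Level of 5 genes in every library as a percent of the summed CPM of 20 microglia and macrophage markers, on log axes; symbols mark the replicate and the open symbol a library with 0 counts. C3, Cfb and Cfi were highest in the 3 APB5 libraries, and the groups overlapped for C3ar1 and C5ar1.

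The remaining complement genes were followed in lists of the classical and lectin pathway, factor D with the terminal pathway, other regulators and other receptors. Of 17 classical and lectin genes, 12 were tested, and in APB5 against IgG 11 had a positive log2 fold change, with a median of 1.54, 0 calls and 6 genes past an unadjusted p of 0.05 with the fold, as were 3.18% of all genes. Without APB5 replicate 3 the median was 0.33 and 1 gene passed, as did 0.95% of all genes. That gene was C4b, which was also called higher in that fit, as were 0.0868% of all genes. In APB5+Mino against APB5 the median of the 12 was −2.22, and 1 was called, as were 0.819% of all genes on the lower side. It was C4b, a subunit of the classical C3 convertase, which fell by 4.09 on the log2 scale (SE 0.68, edgeR, adjusted p = 0.0461). Its mean level was 10.3 ± 3.55 CPM under IgG, 143.8 ± 136.3 CPM under APB5 (65.1 without replicate 3) and 8.48 ± 0.764 CPM under APB5+Mino (± SD, n = 3), and reads could be split with its paralog C4a. C1qa and C1qb, subunits of the initiator C1q, averaged 49.3 ± 61.7 and 36.1 ± 46.4 CPM under APB5 against 3.59 ± 0.196 and 3.12 ± 0.272 CPM under APB5+Mino (edgeR, adjusted p = 0.0550 and 0.0612). Without APB5 replicate 3 their APB5 means were 13.6 and 9.31 CPM, the median log2 fold change of the 12 genes was −0.94, and 6 of them were called lower, C1qa, C1qb, C1qc, C1ra, C1s1 and C4b, against 2.53% of all genes.

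Genes for the end of the cascade were at low levels. Of the 8 genes for factor D and the terminal components, 1 was tested in APB5 against IgG, C8g, at 0.744 ± 0.194 CPM under IgG against 0.456 ± 0.188 CPM under APB5 (edgeR, adjusted p = 0.701), and C8b and Hc averaged 0.133 and 0.0363 CPM. Cfd, which encodes factor D, the protease that activates factor B, was listed at 0 counts in all 12 libraries, and whether its reads could be counted in this table was not tested, so no upper limit is given. Among 16 other regulators, 11 were tested in APB5+Mino against APB5, with a median log2 fold change of −0.098, and 1 was called, as were 0.838% of all genes on the higher side. It was Csmd1, a large membrane protein with complement control domains, which rose by 1.19 (SE 0.19, edgeR, adjusted p = 0.0447). The calls of C4b and Csmd1 were also absent with the replicate block, where 0 genes were called. The most abundant of the other regulators, Clu, Vtn and Susd4, had log2 fold changes of −1.43, 0.26 and −0.098 (edgeR, adjusted p = 0.0760, 0.655 and 0.473). In APB5 against IgG the 11 tested had a median of 0.24 with 0 calls. Of 10 other receptors 6 were tested, with medians of 0.54 in APB5 against IgG and −0.74 in APB5+Mino against APB5 and 0 calls, and the most abundant, Lrp1, C1qbp and Megf10, had log2 fold changes of at most 0.53 in size in either.

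**Figure D4:**
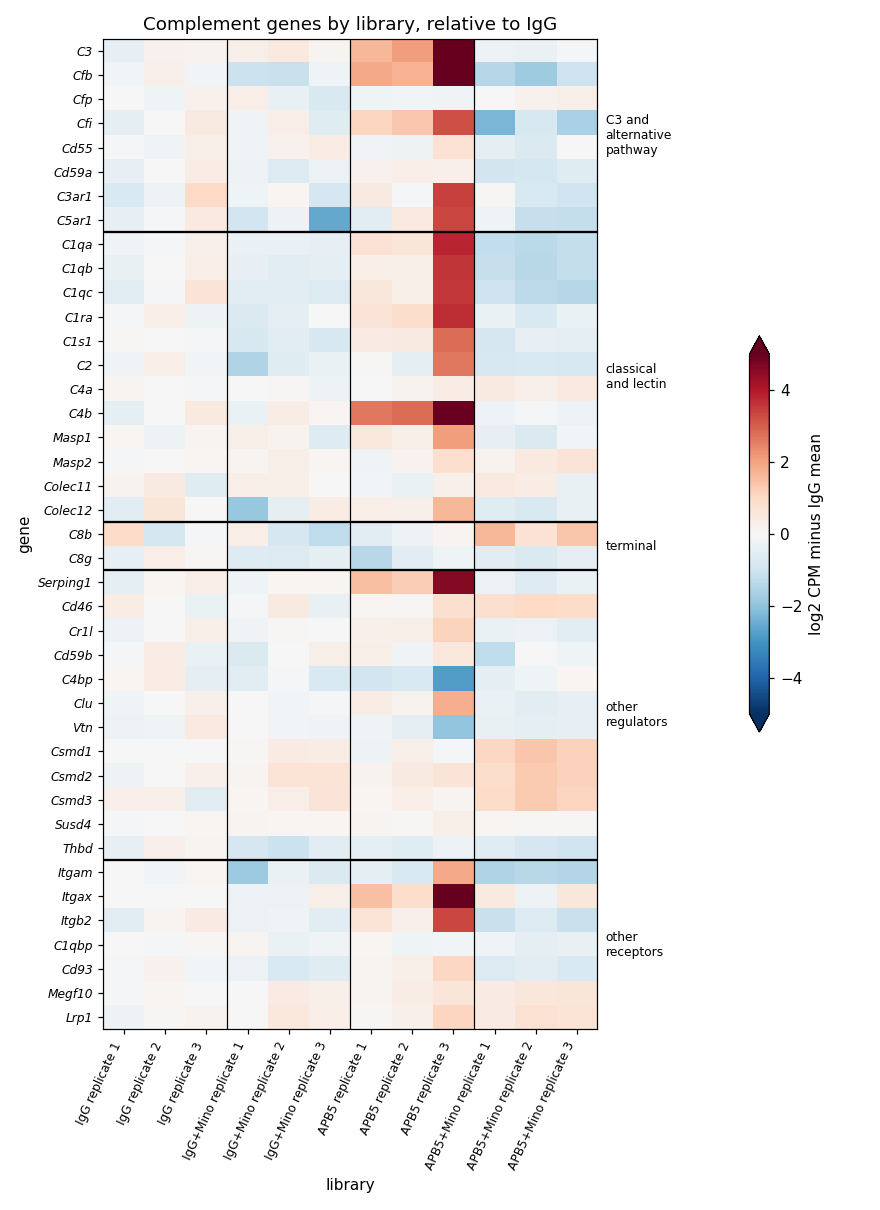
Log2 CPM of complement genes with a mean of at least 0.1 CPM (rows, by list) in each library (columns), relative to the IgG mean of the gene; colours are cut at 5 in size. APB5 replicate 3 was the highest library for C3, Cfb, Cfi and most classical pathway genes. C3, Cfb, Cfi and C4b were also above all IgG libraries in APB5 replicates 1 and 2, as were other drawn genes. Serping1, C1qa, C1ra, C1s1 and Itgax were among those others.

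The deposited transcript tables give the authors' mean signal of each group, without replicate values, for 23 RefSeq transcripts of the 8 genes. In the gene counts, APB5 replicate 3 held 92.3%, 89.7% and 66.8% of the summed CPM of APB5 for C3, Cfb and Cfi. The APB5 means and shares below include that library and could not be given without it. Both C3 models were higher in APB5 than in IgG, NM_009778.3 at 1621 against 43.8 and XM_011246258.2 at 2322 against 75.4, and NM_009778.3 held 36.8% of the gene in IgG, 41.1% in APB5 and 61.8% in APB5+Mino. For Cfb, NM_008198.2 led in APB5 with 66.2% of the gene, and XM_006523671.3 had 28.2% there and next to none in IgG. In IgG+Mino XM_006523671.3 had 50.9% of the gene, at a mean of only 2.24. For Cfi, NM_007686.3 held 79.9% of the gene in APB5 and 0.308% in IgG, where its mean was only 0.185. XM_006500962.4 and XM_006500963.3 held 54.3% and 45.1% in IgG. In IgG+Mino, which had no APB5, NM_007686.3 held 44.9% at a mean of 23.7, XM_006500962.4 31.6% and NM_001329552.1 23.1%. The mean level of Cfi in the gene counts was 0.939 CPM in IgG+Mino and 1.04 CPM in IgG. In APB5+Mino NM_001329552.1 held 99.0%, at a mean of 18.9. That comparison had values for 2 Cfi models, against 4 in APB5 against IgG, so its shares have another denominator. Whether the Cfi models differed between groups was not tested. Cd59a was almost entirely NM_007652.5, at 92.1% in IgG, 94.7% in APB5 and 87.9% in APB5+Mino, and this transcript had a mean of 2974 in APB5 and 1270 in APB5+Mino. How reads shared by models were divided is not given in the sources used here, so the shares are estimates.

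For the 5 of the 8 genes with a mean of at least 1 CPM, the genes most like each across libraries were named by Pearson's r of log2 CPM over the 12 libraries, among 15812 genes with at least 1 CPM on average. For C3 they were Apobec1, Steap4, Serping1, Serpinf1 and A2m, with r from 0.987 to 0.990, and from 0.920 to 0.956 without APB5 replicate 3. Serping1 encodes the inhibitor of C1 and A2m a broad protease inhibitor of plasma. For Cfb they were Lyz2, Cd74, S100a6, H2-Ab1 and H2-Eb1 (r 0.980 to 0.985, and 0.932 to 0.963 without that library), of which Cd74, H2-Ab1 and H2-Eb1 belong to MHC class II antigen presentation. For Cfi they were Spidr, Gm46054, Edn2, Cnmd and Rarb (r 0.955 to 0.972), for Cfp Spag8, Slc39a2, Coq3, Retn and Trex1 (r 0.910 to 0.933) and for Cd59a Castor1, Lcat, Rps18-ps5, Ushbp1 and Nrsn1 (r 0.912 to 0.919). The 5 sets shared no gene. Libraries of a group and APB5 replicate 3 weigh on all of these values, which describe the libraries and carry no test. Among the 8 genes, C3 correlated with Cfb at 0.95 over 12 libraries and 0.84 without APB5 replicate 3, and with C3ar1 at 0.88 and 0.40.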

How the data were processed

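RNA was measured in 12 retinal libraries, 3 per group. The authors made strand-marked poly-A libraries, converted the base calls with bcl2fastq 2.20, and aligned single-end reads to mm39 with its NCBI annotation in the DRAGEN RNA pipeline. The version and whether counting used the strand are not given in the sources used here. The deposited gene table holds raw read counts. It has 3 repeated columns, identical to those they repeat and not used, and a second deposited count table was identical in every cell. The authors' transcript tables give a mean normalized signal per group, used as their value, and their fold changes and p-values (gene and transcript) were not used. The group order of those tables was checked against Xist and Y-linked transcripts.

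The 8 genes and the lists were chosen with earlier results of these data known. R 4.3.3, edgeR 4.0.16 and DESeq2 1.42.0 were used. Genes were filtered by filterByExpr (minimum count 10, minimum total 15), scaled by TMM and fitted by edgeR's quasi-likelihood test (prior count 2, two-sided) in the 2 groups compared, or in all 12 libraries for the interaction, with Benjamini-Hochberg adjustment over all genes tested. Calls needed an adjusted p no higher than 0.05 and a log2 fold change of 1 or more in either direction. The scripts were tested on simulated counts. CPM used TMM factors and the full library totals, and levels per kilobase used GENCODE exon lengths on GRCm39. Named genes were the 8, up to 4 called and the 3 most abundant genes of each list, and the 5 most correlated genes, and some marker genes that this rule names are not reported here. Exact 95% intervals of count ratios cover counting error only.

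Libraries share replicate numbers whose meaning is not stated. For APB5+Mino against APB5, the correlation of deviations from group means was 0.134 to 0.182 for the 3 same-numbered pairs and −0.157 to 0.0194 for the others, so the numbers were taken to pair these libraries. In each of these groups replicate 3 was high in Xist and the other replicates low, so the numbers also follow this sign of sex. Its part in these correlations was not tested. In the other comparisons at least 1 such correlation was under 0.1. No replicate pair differed by as little as sampling noise. The alternatives were RLE scaling, library size only, DESeq2, no count filter, a minimum of 10 counts per library, a joint fit of the 12 libraries, the replicate block, an Xist covariate, no fold threshold, unadjusted p-values and the omission of single libraries. In the case of gene lists, fits without APB5 replicate 3 and with the block were chosen after seeing the data.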

Additional observations from a re-analysis of the deposited data

Results flagged for a closer look

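C3 as a percent of the microglia marker sum differed in opposite directions between libraries with and without minocycline in the 2 antibody backgrounds. It was 2.02 percentage points higher on average in IgG+Mino than in IgG, where all 3 libraries were above all 3 IgG libraries, and the difference of APB5+Mino minus APB5 was −15.6 percentage points, with all 3 libraries below all 3 APB5 libraries and APB5 replicate 3 at 43.5%. Without that library the difference was −4.08 percentage points. In CPM the IgG and IgG+Mino libraries overlapped for C3. The marker sum itself was 69.0 to 103.5 CPM in IgG and 50.2 to 60.0 CPM in IgG+Mino. It was 84.7 to 417.7 CPM in APB5 and 34.6 to 38.4 CPM in APB5+Mino. IgG and IgG+Mino also differed fully in Xist, so minocycline and sex cannot be told apart in the first of these differences. The difference between these 2 changes was not tested on this scale, and the interaction of C3 in CPM is given above.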

How the results depend on the processing

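In APB5 against IgG, 0 of the 8 genes were called in the main test, and 1 with DESeq2, 3 with Xist as a covariate and 3 at an unadjusted p under 0.05. Over all genes, DESeq2 called 79 higher and the Xist fit 1060, and 648 passed the unadjusted rule on the higher side. DESeq2 gave no p for C3 and Cfb in this comparison, in APB5+Mino against APB5 or in the interaction, so its counts leave them out. For APB5+Mino against APB5, where 2 were called, the count was 3 with DESeq2, 0 with library size only, 0 with the replicate block, 4 without a count filter, 6 with all 12 libraries in a fit, 4 with Xist as a covariate and 5 at an unadjusted p, and it ran from 0 to 4 when each library was left out. Over all genes this comparison had 170 higher and 166 lower calls, 0 and 0 with the block, 524 and 1007 with DESeq2 and 481 and 1142 in the fit of all 12 libraries. There were 220 and 348 without a count filter, 665 and 1254 with Xist as a covariate, and 670 and 1304 at an unadjusted p. Between APB5+Mino and IgG+Mino the count was 0, and 1 (Cfi, lower) with DESeq2, without a count filter, with the replicate block or at an unadjusted p. Over all genes these had 79, 104, 92 and 162 on the lower side, in that order. The interaction had 0, and 1 with DESeq2, 3 with Xist as a covariate, 3 at an unadjusted p and 0 to 1 with each library left out. For it, DESeq2 called 239 of all genes lower and the Xist fit 810, and 967 passed the unadjusted rule on the lower side. The call with a library left out was C3, without APB5 replicate 2 (75 genes lower) or APB5 replicate 3 (52 genes lower). The count stayed at 0 for IgG+Mino against IgG in every alternative run. The cause was not tested, beyond the fewer libraries or genes in those fits. Block fits for comparisons whose numbers did not pair the libraries changed no other count of the 8 genes. In all 5 comparisons together, 9 fitted values changed sign, none of them called. With each library left out in turn, log2 fold changes ran from −0.23 to 0.33 for Cd55 and from −0.0050 to 2.60 for C3ar1 in APB5 against IgG and from −2.28 to 0.16 for C5ar1 in the interaction, each turning without APB5 replicate 3. In IgG+Mino against IgG they ran from −0.54 to 0.0079 for Cfp, from −0.41 to 0.13 for Cfi and from −0.76 to 0.22 for C3ar1, turning without IgG replicate 3 (Cfi, C3ar1) or IgG+Mino replicate 3 (Cfp, and Cfi at 0.067), and with Xist as a covariate Cfi and C3ar1 were at 0.91 and 1.20. Levels of Cfb, C3ar1 and C5ar1 outside APB5 rest on at most 32 counts per library, which limits any statement on them.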
